A study of Mus musculus with 20 samples.

Results

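Spp1, Gpnmb, Lgals3, Cd9, Cd52, Cd83 and Ank are genes that microglia switch on or raise in damaged, ageing or amyloid-laden brain. These 7 genes, chosen by symbol out of 24394 genes counted, were described in microglia with a deletion in Tgfbr2, the type II receptor for TGF-beta. Poly-A RNA was sequenced from 20 libraries of sorted microglia, the resident macrophages of the brain, in 6 groups. T2MG libraries, labelled as unable to signal through TGF-beta, numbered 3 at embryonic day 16 (E16), 3 at postnatal day 15 (P15) and 4 at postnatal day 60 (P60), and Control libraries numbered the same at each stage. The study's description gives 1 animal per library, and it speaks of the loss of 1 copy or both copies of Tgfbr2, while the labels do not spell out which alleles the Control animals carried. C57Bl6 and FVB are named as strain for every library of both genotypes. The line that deletes the gene, the cells it acts in and the sort gates are not stated in the sources used here, and the genotype entry of P60 T2MG 4 is blank, so that its group comes from its title.

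TGF-beta binds a complex of a type II and a type I receptor that phosphorylates SMAD transcription factors, and this signal is known to maintain the gene programme of resting microglia. Disease-associated microglia lose part of that resting programme and gain a set of genes for lipid handling, lysosomes and adhesion, in part through the surface receptor Trem2. Of the 7 genes, Spp1 encodes osteopontin, a secreted phosphoprotein that binds integrins and CD44, and Lgals3 encodes galectin-3, a lectin that binds beta-galactosides outside the cell and on damaged lysosomes. Gpnmb encodes a transmembrane glycoprotein of lysosomes and the cell surface. Cd9 is a tetraspanin, Cd52 a short glycoprotein held on leukocytes by a lipid anchor, and Cd83 an immunoglobulin-family surface protein of activated antigen-presenting cells. Ank encodes a membrane protein needed for the export of pyrophosphate.

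Promoter sequence is shown for Spp1, Gpnmb and Cd9, the genes with the largest differences between genotypes, so that they can be compared as letters; RefSeq windows on GRCm38.p6 matched 5 of the 7 genes. Each line gives the 250 bases before the annotated start, 5′ to 3′ on the strand of the gene. Capitals mark a match to 1 of 4 motifs searched on both strands, namely AP-1 (TGANTCA), the E-box of the MiT/TFE factors (CACATG or CACGTG), PU.1 (GAGGAAGT) and SMAD (GTCTAGAC).
Spp1, chr5:104434861-104435110, plus strand: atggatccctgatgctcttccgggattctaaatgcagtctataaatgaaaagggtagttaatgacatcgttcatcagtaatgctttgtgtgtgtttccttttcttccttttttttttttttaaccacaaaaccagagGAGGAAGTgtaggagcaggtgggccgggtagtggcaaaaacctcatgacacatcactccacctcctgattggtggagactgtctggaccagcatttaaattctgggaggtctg
Gpnmb, chr6:49036268-49036517, plus strand: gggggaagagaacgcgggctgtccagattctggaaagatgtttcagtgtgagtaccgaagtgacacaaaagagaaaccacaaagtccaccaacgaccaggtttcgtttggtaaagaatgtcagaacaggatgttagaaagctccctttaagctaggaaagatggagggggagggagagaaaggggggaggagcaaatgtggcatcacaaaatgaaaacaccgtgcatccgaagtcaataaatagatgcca
Cd9, chr6:125494761-125495010, minus strand: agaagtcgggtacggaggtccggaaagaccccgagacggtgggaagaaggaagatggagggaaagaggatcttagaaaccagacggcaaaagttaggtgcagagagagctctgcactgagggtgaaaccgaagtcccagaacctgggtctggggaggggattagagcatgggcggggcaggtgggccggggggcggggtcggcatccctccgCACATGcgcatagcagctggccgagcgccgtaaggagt
The PU.1 letters began at position -113 from the start of Spp1 used here and the E-box letters at -38 from the start of Cd9. Spp1 had another annotated start, whose window (250 bases at chr5:104435942-104436191) held no match and is not shown. No motif lay in the bases printed for Gpnmb, and an AP-1 match (TGACTCA) began at position 9 after its start. Among 32851 promoter windows of 300 bases (the 250 before the start and the 50 after it), 3.2% held the PU.1 letters, 20.4% an E-box, 7.81% AP-1 and 0.213% the SMAD letters. A match is a run of letters and not a measured binding site. Only the letters listed were searched, so shorter or other forms of a motif, of SMAD among them, were left unmarked.

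Library totals were 7437764 to 9221396 counts at E16, 14525739 to 16442355 at P15 and 12726594 to 16526122 at P60. Levels below are counts-per-million (CPM) on scaled library sizes. Tgfbr2 itself averaged 192 ± 35.5 CPM in T2MG and 230 ± 54.6 CPM in Control libraries at E16 (SD, n = 3 each), 346 ± 122 and 564 ± 71.7 CPM at P15 (n = 3 each), and 534 ± 83.6 and 597 ± 41.0 CPM at P60 (n = 4 each). Its log2 difference was -0.26, -0.71 and -0.16, with adjusted p of 0.573, 0.0305 and 0.544 (edgeR quasi-likelihood test), so counts over the whole gene separated the genotypes at P15 alone, and that call ended without P15 Control 2 or 3 or P15 T2MG 1 or 3 (adjusted p 0.0581, 0.116, 0.0699 and 0.132). Reads outside a deleted exon are counted too, so the total over the gene does not measure the deletion. All 12 defining microglial markers, Tmem119 and P2ry12 among them, had counts in each of the 20 libraries, and their summed level was 3942 to 6036 CPM in T2MG against 7664 to 16100 CPM in Control libraries at E16, 6626 to 11870 against 36790 to 55120 CPM at P15, and 14330 to 15480 against 64830 to 87170 CPM at P60. Of the 12 markers, 7 were called lower in T2MG at E16, 10 at P15 and 10 at P60, and 0 were called higher. Their median log2 differences were -2.38, -3.58 and -3.92. Over all genes tested, 2.67%, 12.3% and 15.7% were called lower. Stage cannot be told apart from any difference in how libraries of different stages were made.

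A pair of libraries stood apart, each in its own measure. P60 Control 1 lay at -26.4 on the second principal component of log2 CPM, away from -93.5 to -91.9 in the other P60 Control libraries. Its summed level was 8191 CPM over 9 neutrophil markers and 1895 CPM over 10 monocyte markers, against 512 to 717 CPM and 48.8 to 75.5 CPM in the other P60 Control libraries. P15 T2MG 3 had 22840 CPM over the monocyte markers, against 5257 and 2031 CPM in the other P15 T2MG libraries. On the second principal component it lay at 75.3, not far from their 68.5 and 63.5. Over the neutrophil markers P15 T2MG 1 was the highest of them. P15 T2MG 1, 2 and 3 had 30390, 7611 and 25420 CPM. Values without P60 Control 1 or P15 T2MG 3 are given beside the results that they changed most.

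The genes did not move as 1 block. At E16 Spp1 and Cd9 fell in T2MG microglia, and the other members were not called. At P15 Spp1, Gpnmb, Lgals3 and Cd83 rose while Cd9 fell. At P60 Lgals3 and Cd83 rose, Gpnmb and Cd9 fell, and Spp1 was not called. A gene was called at an adjusted p under 0.05 over all genes tested.

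Set against all 15568 genes tested, 2 of the 7 members were called at E16, where 3.20% of all genes were called, 5 at P15, where 24.0% were, and 4 at P60, where 39.3% were. The share of genes called higher was 11.7% at P15 (4 members) and 23.5% at P60 (2 members), and the share called lower was 2.67% at E16 (2 members), 12.3% at P15 (1 member) and 15.7% at P60 (2 members). All 7 members passed the filter on low counts. The median log2 difference over the members was -0.83 at E16, 1.23 at P15 and -0.16 at P60, beside 0.04, 0.01 and 0.14 over all genes. In bulk RNA, a change in the number of cells that express a gene cannot be told apart from a change in RNA per cell.

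**Figure D1:**
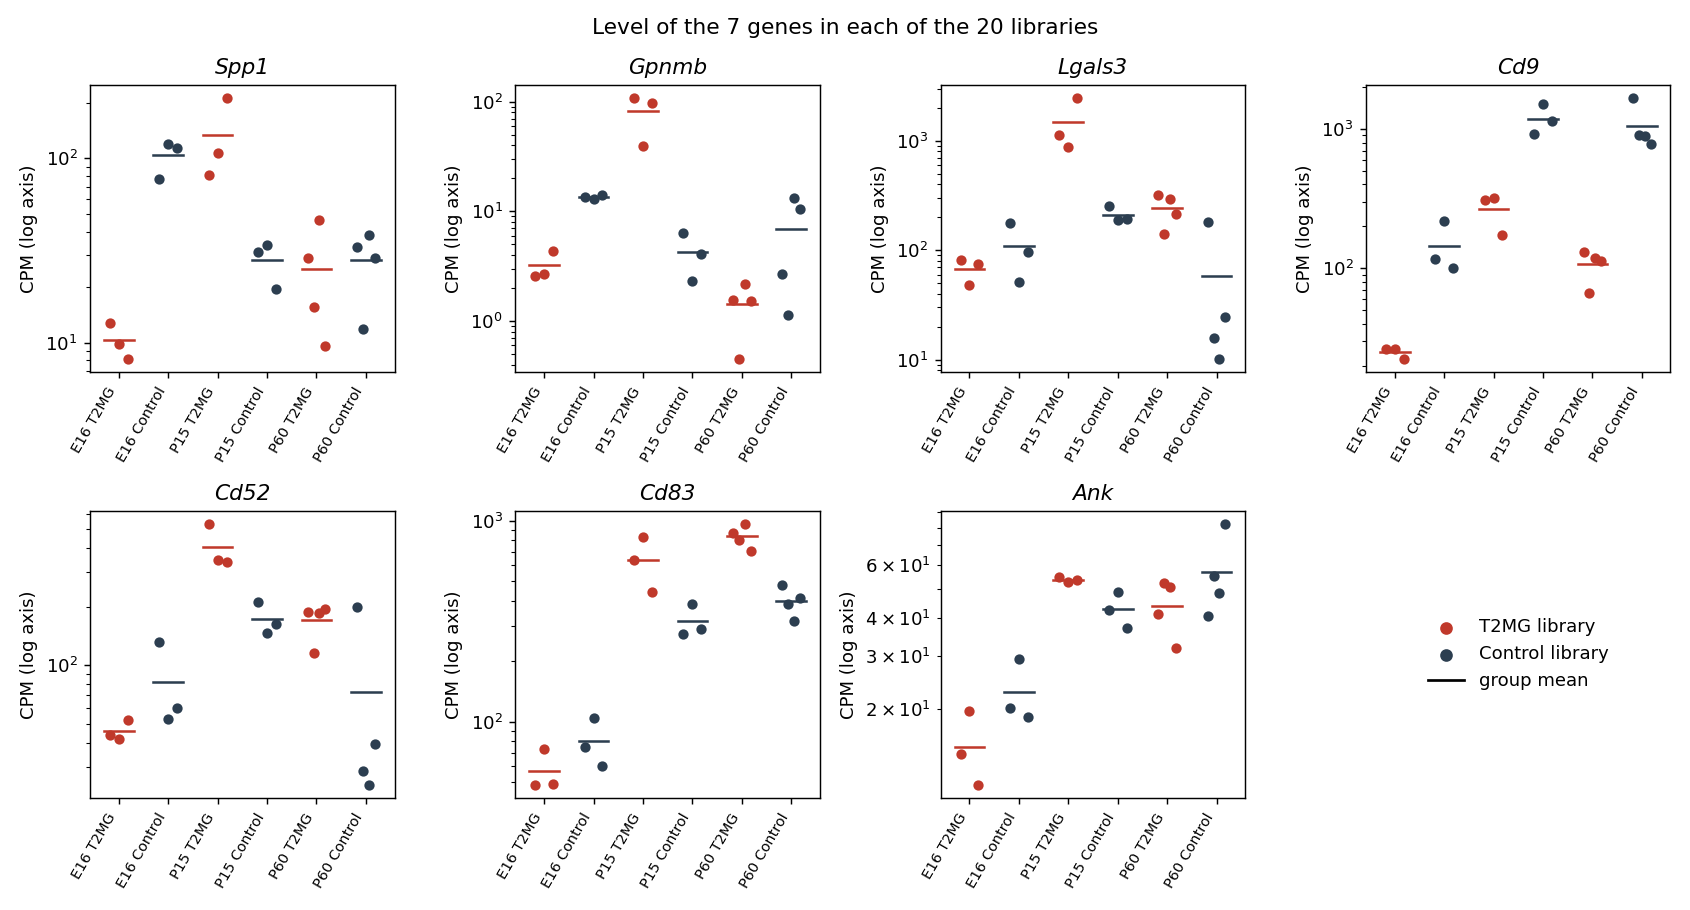
Level of each gene in every library, in CPM on a log axis, for T2MG (red) and Control (dark) libraries at E16, P15 and P60; points are libraries and lines group means. At P15 the T2MG and Control points of all 7 genes are apart, with Cd9 the gene that lies lower in T2MG.

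Spp1, on chromosome 5 (GRCm38, 104435118 to 104441050, plus strand), reversed its direction between E16 and P15. At E16 it had 12.8, 9.88 and 8.11 CPM in T2MG libraries, against 77.4, 119 and 115 CPM in Control libraries. The groups were far apart, and the level in T2MG was 10.1-fold lower (log2 -3.34, SE 0.54, adjusted p = 0.00177). By P15 the T2MG libraries had 80.95, 106 and 213 CPM, against 30.9, 33.98 and 19.6 CPM in Control libraries. Again the groups did not overlap, with T2MG now 4.74-fold higher (log2 2.24, SE 0.50, adjusted p = 0.00361). At P60 the values were 28.9, 15.7, 46.1 and 9.56 CPM in T2MG and 32.98, 11.9, 38.4 and 28.9 CPM in Control libraries. These ranges overlapped throughout (log2 -0.16, SE 0.42, adjusted p = 0.792). P15 T2MG 3, the library high in monocyte markers, was also the highest for Spp1, and without it the P15 difference was 1.73 (adjusted p = 0.0232).

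Lgals3, on chromosome 14 (47367751 to 47386160, plus strand), rose after birth. In E16 libraries it had 81.5, 48.2 and 74.5 CPM in T2MG and 177, 51.6 and 96.4 CPM in Control, and these overlapped (log2 -0.67, SE 0.77, adjusted p = 0.688). At P15 it had 1120, 874.5 and 2464 CPM in T2MG libraries, against 256, 188 and 193 CPM in Control libraries. Every T2MG library was above every Control library (7.004-fold, log2 2.81, SE 0.82, adjusted p = 0.0185). P60 levels were 319.5, 142, 293 and 213 CPM in T2MG, against 182, 15.7, 10.1 and 24.6 CPM in Control. P60 Control 1 alone overlapped with the T2MG libraries. The P60 log2 difference was 2.06 (SE 0.69, adjusted p = 0.0248) with it and 3.85 (adjusted p = 4.55e-06) without it. At P15 the call ended when P15 T2MG 3 was left out (log2 2.23, adjusted p = 0.0763), or P15 Control 2 or 3 (adjusted p 0.0647 and 0.0706), but with both P15 T2MG 3 and P60 Control 1 left out Lgals3 was called (log2 2.23, adjusted p = 0.000971). The P60 call likewise ended without P60 Control 2, 3 or 4 or P60 T2MG 1 or 3, at adjusted p of 0.0684, 0.0569, 0.0725, 0.0562 and 0.0507, and in a fit to the P60 libraries alone (2.01, adjusted p = 0.084).

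Gpnmb, on chromosome 6 (49036546 to 49070929, plus strand), had the largest rise of the 7 genes at P15 and was called lower at P60. The E16 libraries held 2.56, 2.68 and 4.38 CPM in T2MG and 13.6, 12.9 and 14.0 CPM in Control. The groups were separate, yet the difference was not called (log2 -2.07, SE 0.68, adjusted p = 0.111). DESeq2, a fit to the E16 libraries alone and a fit with the replicate number as a block did call it (adjusted p 0.0334, 0.00998 and 0.0138). At P15 it had 108, 39.6 and 96.8 CPM in T2MG libraries, against 6.36, 2.30 and 4.08 CPM in Control libraries, a 19.1-fold rise (log2 4.26, SE 0.71, adjusted p = 0.000348). P15 T2MG 1, the highest P15 T2MG library for neutrophil markers, was also the highest for Gpnmb, and a link was not tested. Gpnmb stayed called at P15 whichever single library was left out (3.96 to 4.64, adjusted p 7.04e-05 to 0.00352). At P60 it was near the floor in T2MG, with 1.55, 0.446, 2.18 and 1.51 CPM from 22, 5, 28 and 21 counts, against 2.70, 1.14, 13.2 and 10.6 CPM in Control from 39, 16, 183 and 132 counts. P60 Control 3 and 4 lay above the rest, while Control 1 and 2 were close to or within the T2MG range. The log2 difference was -2.26 (SE 0.62, adjusted p = 0.00739); limma voom did not call it (-1.78, adjusted p = 0.162).

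Cd9, on chromosome 6 (125460266 to 125494791, minus strand), fell in T2MG microglia at all 3 stages and was the only member called at each of them. It had 26.3, 26.5 and 22.1 CPM in T2MG libraries at E16, against 117, 219 and 99.9 CPM in Control libraries (5.81-fold lower, log2 -2.54, SE 0.36, adjusted p = 0.000791). P15 levels were 307, 319.6 and 173 CPM in T2MG, against 924.5, 1509 and 1137 CPM in Control (4.47-fold lower, log2 -2.16, SE 0.35, adjusted p = 0.000291). The P60 libraries gave 132, 66.0, 118 and 113 CPM in T2MG, against 1672, 903, 891 and 777 CPM in Control (9.90-fold lower, log2 -3.31, SE 0.32, adjusted p = 3.19e-07). No T2MG library reached a Control library at any stage. P60 Control 1 was the highest of all libraries, and without it the P60 difference was -3.00 (adjusted p = 1.64e-07).

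Cd52, on chromosome 4 (134082448 to 134095082, minus strand), had postnatal calls that depended on P60 Control 1 and on the fit. At E16 its values were 43.7, 41.6 and 52.2 CPM in T2MG and 132, 52.8 and 60.2 CPM in Control, separate but close (log2 -0.83, SE 0.59, adjusted p = 0.492). At P15 they were 534, 348.5 and 339.6 CPM in T2MG, against 212, 146 and 163 CPM in Control. T2MG libraries were all higher, and the difference was not called (log2 1.23, SE 0.59, adjusted p = 0.137). Over single omissions it ran from 0.99 to 1.37 (adjusted p 0.00524 to 0.295). The highest of these T2MG libraries, P15 T2MG 1, was also the highest of them for neutrophil markers, and a link was not tested. The P60 values were 189, 115, 185 and 195 CPM in T2MG, against 200.1, 28.6, 24.2 and 39.5 CPM in Control. Only P60 Control 1 reached the T2MG range, and the log2 difference was 1.23 (SE 0.51, adjusted p = 0.0656). With all libraries kept, limma voom (1.78, adjusted p = 0.00396) and the fit with the replicate number as a block (1.825, adjusted p = 0.00596) called it. Without P60 Control 1 it was 2.48 (adjusted p = 4.17e-06), and the P15 difference, unmoved at 1.23, was then called (adjusted p = 0.00524), as it was in a fit to the P15 libraries alone (1.22, adjusted p = 0.0152).

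Cd83, on chromosome 13 (43784775 to 43803132, plus strand), rose by a like amount at both postnatal stages. It had 48.2, 73.2 and 48.6 CPM in T2MG and 74.4, 105 and 59.7 CPM in Control libraries at E16, which overlapped (log2 -0.49, SE 0.25, adjusted p = 0.326). At P15 T2MG libraries had 636, 829 and 444 CPM, against 273, 386 and 289.7 CPM in Control libraries, 2.01-fold higher without overlap (log2 1.01, SE 0.25, adjusted p = 0.00669). At P60 they had 868, 800.2, 965 and 708 CPM, against 477, 383.5, 317 and 411 CPM in Control, again without overlap and 2.10-fold higher (log2 1.07, SE 0.22, adjusted p = 0.000721).

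Ank, on chromosome 15 (27466677 to 27594909, plus strand), was not called between genotypes at any stage. Its levels were 14.2, 19.7 and 11.2 CPM in T2MG and 20.2, 29.4 and 18.8 CPM in Control libraries at E16 (log2 -0.60, SE 0.26, adjusted p = 0.248). P15 libraries had 55.0, 52.7 and 53.6 CPM in T2MG, just above 42.6, 49.1 and 37.1 CPM in Control (log2 0.32, SE 0.25, adjusted p = 0.378). At P60 the values overlapped, with 41.5, 52.3, 50.7 and 31.9 CPM in T2MG and 40.8, 55.4, 48.6 and 82.3 CPM in Control (log2 -0.37, SE 0.22, adjusted p = 0.201).

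**Figure D2:**
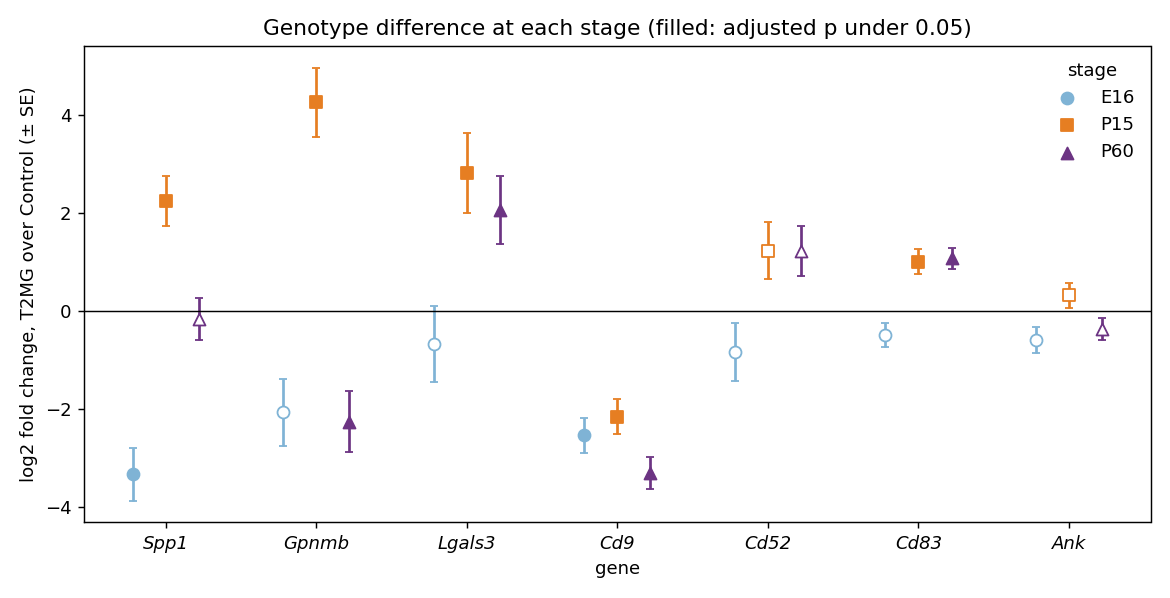
Log2 fold change of T2MG over Control (vertical axis, bars ± SE) for each gene at E16 (circles), P15 (squares) and P60 (triangles); filled symbols had an adjusted p under 0.05. Cd9 is below 0 at all 3 stages, whereas Spp1 lies at -3.34 at E16 and 2.24 at P15, and Gpnmb at 4.26 at P15 and -2.26 at P60.

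Libraries of the groups did not overlap in 4 of the 7 genes at E16, where 34.4% of all genes tested were separate in this way, in all 7 at P15, where 37.3% were, and in 2 at P60 (Cd9 and Cd83), where 38.4% were. Markers of some other cells moved with genotype as well. The summed level of 11 markers of border-associated macrophages, the macrophages of the meninges and perivascular spaces, was 3712 to 5830 CPM in T2MG against 729 to 831 CPM in Control libraries at P15 and 8686 to 14870 against 241 to 747 CPM at P60, while at E16 it was 3817 to 5625 against 5447 to 6219 CPM. Of these 11 markers, 8 rose at P15 and 11 at P60, and none was at 0 in all libraries of a group. For comparison with this and the marker counts below, 11.7% of all genes were called higher at P15 and 23.5% at P60. The shares called lower were 12.3% at P15 and 15.7% at P60, and 3.20% were called at E16. The monocyte markers summed to 2031 to 22840 CPM in T2MG against 1297 to 2351 CPM in Control libraries at P15, with 1 of 10 called higher and 1 lower. At P60 they summed to 129 to 374 against 48.8 to 1895 CPM, with 0 called. The neutrophil markers summed to 7611 to 30390 against 3673 to 9499 CPM at P15, where 0 of 9 were called. At P60 these markers summed to 257 to 818.5 against 512 to 8191 CPM, with 0 called higher and 1 lower. Markers of brain cells outside the macrophage lineage moved with genotype too, though not all in 1 direction or at all stages. The 10 oligodendrocyte markers summed to 912 to 979.9 CPM in T2MG against 260.4 to 511 CPM in Control libraries at P15 (2 called higher) and to 986 to 1838 against 303 to 391.8 CPM at P60 (10 called higher); at E16 they overlapped (129 to 177 against 136 to 179 CPM). The 12 neuronal markers summed to 959 to 1175 CPM in T2MG against 328 to 726 CPM in Control libraries at E16 (0 called). Their sums were 45.1 to 105 against 7.87 to 37.1 CPM at P15 (4 called higher) and 48.1 to 65.2 against 4.83 to 29.5 CPM at P60 (8 called higher). The 10 astrocyte markers summed to 321 to 358 CPM in T2MG against 104 to 268 CPM in Control libraries at E16 (0 called). Their sums overlapped at P15 (344 to 529 against 306 to 569.8 CPM; 2 called higher and 2 lower) and at P60 (198 to 343 against 216 to 295 CPM), although 9 were called higher and 1 lower at P60. The 10 markers of endothelial cells and pericytes were lower in T2MG at P15, with sums of 32.0 to 45.8 against 56.7 to 118 CPM (2 called lower). Their sums overlapped at E16 (114 to 128 against 57.9 to 116 CPM) and at P60 (34.6 to 58.4 against 36.9 to 76.2 CPM), with 0 called at both. The part of all these other cells in the values of the 7 genes was not tested.

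**Figure D3:**
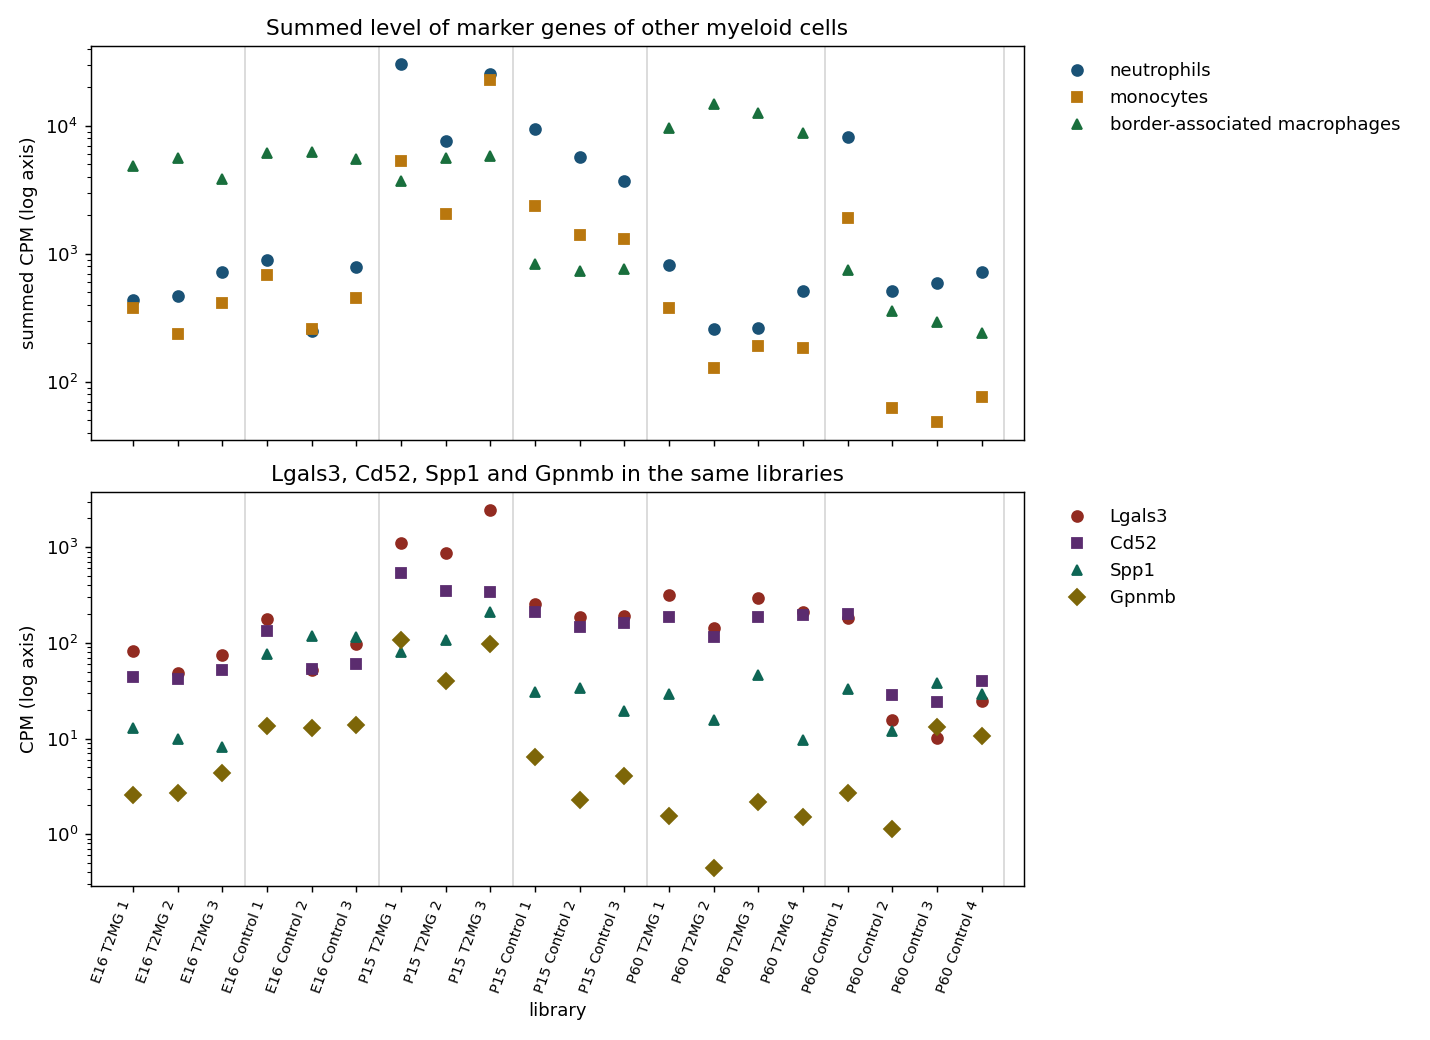
Summed CPM of neutrophil, monocyte and border-associated macrophage markers (top, log axis) and CPM of Lgals3, Cd52, Spp1 and Gpnmb (bottom, log axis) in each of the 20 libraries. P60 Control 1 is the highest P60 Control library for neutrophil and monocyte markers (8191 and 1895 CPM) and for Lgals3 (182 CPM) and Cd52 (200.1 CPM).

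Testing the genotype effect of 1 stage against that of another gave its largest values for Spp1 and Gpnmb. From E16 to P15 the effect rose in 4 members, by 5.58 for Spp1 (SE 0.73, adjusted p = 0.000213), 6.33 for Gpnmb (SE 0.98, adjusted p = 0.000645), 3.48 for Lgals3 (SE 1.12, adjusted p = 0.041) and 1.497 for Cd83 (SE 0.35, adjusted p = 0.0086) on the log2 scale; 16.3% of all genes were called in this difference and 8.97% in this direction. The Lgals3 call ended without E16 Control 1, P15 Control 1, 2 or 3, P60 T2MG 3 or 4, P15 T2MG 3 or any E16 T2MG library (2.90 to 3.63, adjusted p 0.0508 to 0.124). Cd52 (2.06) was not called (adjusted p = 0.0987) with all libraries; it was called without P60 Control 1 (2.06, adjusted p = 0.00296), with both libraries that stood apart left out (2.18, adjusted p = 0.00306) and with only the E16 and P15 libraries (2.10, adjusted p = 0.0118). Ank (0.92, adjusted p = 0.0929) was called without E16 T2MG 2 (1.16, adjusted p = 0.0487). From P15 to P60 it fell by 2.41 for Spp1 (SE 0.65, adjusted p = 0.0311) and by 6.51 for Gpnmb (SE 0.93, adjusted p = 0.000986), 2 members beside 8.02% of all genes called and 2.40% in this direction. The Spp1 call ended without P15 T2MG 3 (-1.90, adjusted p = 0.085), P60 T2MG 2, P15 Control 1 or 3, or P60 Control 3 or 4 (-2.46 to -2.20, adjusted p 0.0503 to 0.0912), and with only the P15 and P60 libraries (-2.41, adjusted p = 0.0708) or with both libraries that stood apart left out (-1.81, adjusted p = 0.0645). From E16 to P60 the effect rose by 3.17 for Spp1 (SE 0.67, adjusted p = 0.00249) and by 1.56 for Cd83 (SE 0.33, adjusted p = 0.00257), 2 members beside 20.2% of all genes called and 12.3% in this direction. Without P60 Control 1, Lgals3 (4.52) and Cd52 (3.31) passed as well, and Cd52 also passed from P15 to P60 (1.24, adjusted p = 0.0469). With all libraries kept, limma voom called Lgals3 (3.50, adjusted p = 0.00896) and Cd52 (2.49, adjusted p = 0.0179) from E16 to P60, and so did the replicate block (3.53 and 2.54, adjusted p 0.0113 and 0.017). For Cd9 the differences between stages were 0.38, -1.15 and -0.77, and none was called by edgeR (adjusted p 0.635, 0.122 and 0.258), while DESeq2 called the difference from P15 to P60 (-1.21, adjusted p = 0.0457). These 3 differences share libraries with each other.

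Stages were also compared within each genotype. In T2MG microglia all 7 members rose at P15 against E16, beside 60.8% of all genes called and 29.5% called higher; log2 changes were 4.66 for Gpnmb, 4.45 for Lgals3, 3.70 for Spp1, 3.49 for Cd83, 3.41 for Cd9, 3.15 for Cd52 and 1.84 for Ank. At P60 against P15, 4 members fell in T2MG, beside 20.2% called and 9.40% called lower, namely Gpnmb (-5.82), Lgals3 (-2.62), Spp1 (-2.41) and Cd9 (-1.31). The fall of Lgals3 was lost without P15 T2MG 3 or P60 T2MG 2 (adjusted p 0.0817 and 0.0573), and Cd52 (-1.25, adjusted p = 0.108) was called without P60 Control 1 (adjusted p = 0.00339) and with only the libraries compared (-1.30, adjusted p = 0.00784). At P60 against E16, 6 were higher in T2MG, beside 60.7% called and 29.7% called higher, and Gpnmb was not called (-1.16, adjusted p = 0.144), except with only the libraries compared (-1.16, adjusted p = 0.0431). Of those 6, Spp1 (1.29, adjusted p = 0.0288) and Lgals3 (1.83, adjusted p = 0.0459) lost the call when single libraries were left out. For Spp1 these were E16 T2MG 2 or 3 and P60 T2MG 1 or 3 (0.81 to 1.26, adjusted p 0.0563 to 0.136). For Lgals3 they were any E16 T2MG library, P15 T2MG 1, P60 T2MG 1, 3 or 4, E16 Control 3 and any P15 Control library (1.63 to 1.98, adjusted p 0.0517 to 0.133). The Spp1 call was also lost with limma voom (1.07, adjusted p = 0.169), and the Lgals3 call with RLE and upper quartile scaling (1.68 and 1.71, adjusted p 0.06 and 0.0585).

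In Control microglia, 5 members changed at P15 against E16, beside 50.7% of all genes (24.0% higher and 26.7% lower). Cd9 (3.04), Cd83 (1.99) and Ank (0.91) rose, while Spp1 (-1.88, adjusted p = 0.00476) and Gpnmb (-1.66, adjusted p = 0.0429) fell; the Gpnmb call was lost without E16 T2MG 1 or 2, P60 T2MG 1 or 4, P15 Control 2 or 3, or any E16 Control library (-1.69 to -1.37, adjusted p 0.0505 to 0.147). At P60 against E16, 4 were called, beside 60.5% (26.1% higher and 34.4% lower): Cd9 (2.87), Cd83 (2.32) and Ank (1.32) were higher and Spp1 (-1.89) lower. At P60 against P15, edgeR called 0 members, beside 18.6% of all genes; 2 had an unadjusted p under 0.05, DESeq2 called 1 and limma voom 2. Those 2 were Lgals3 (-1.87, adjusted p = 0.0777) and Cd52 (-1.25, adjusted p = 0.113), and without P60 Control 1 both fell (-3.66 and -2.50, adjusted p 2.31e-05 and 1.46e-05). Without that library Cd52 was also called at P15 against E16 (1.09, adjusted p = 0.00588; 1.08 and 0.0231 with only the libraries compared), Lgals3 was called there with both libraries that stood apart left out (0.97, adjusted p = 0.0392), and at P60 against E16 both were called lower (Lgals3 -2.69, adjusted p = 1e-04; Cd52 -1.41, adjusted p = 0.000788). Gpnmb at P60 against E16 (-0.97, adjusted p = 0.167) was called without P60 Control 3 (-1.5, adjusted p = 0.045). With all libraries kept, limma voom called Lgals3 (-1.71, adjusted p = 0.0307) and Gpnmb (-1.60, adjusted p = 0.0424) lower at P60 against E16.

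Ordered by mean level over the 6 groups, Spp1 was highest in P15 T2MG (133 ± 69.9 CPM) and E16 Control (104 ± 22.9 CPM), whose libraries overlapped, and lowest in E16 T2MG (10.3 ± 2.38 CPM), whose range met that of P60 T2MG (25.1 ± 16.2 CPM). Gpnmb had its highest mean in P15 T2MG (81.5 ± 36.7 CPM), clear of E16 Control (13.5 ± 0.520 CPM), and its lowest in P60 T2MG (1.42 ± 0.720 CPM). Lgals3 peaked in P15 T2MG (1486 ± 856 CPM), apart from P60 T2MG (242 ± 80.5 CPM), and P60 T2MG overlapped with P15 Control (212 ± 37.8 CPM). Cd9 was highest in P15 and P60 Control (1190 ± 296 and 1061 ± 411 CPM, overlapping) and lowest in E16 T2MG (25.0 ± 2.46 CPM). Cd52 was highest in P15 T2MG (407 ± 110 CPM), and all its other neighbours in the order overlapped below P15 Control (173.5 ± 34.3 CPM). Cd83 was highest in P60 T2MG (835 ± 109 CPM), which overlapped with P15 T2MG (636 ± 193 CPM). Ank spanned the least, between 56.8 ± 18.04 CPM in P60 Control and 15.04 ± 4.29 CPM in E16 T2MG. SDs are over the 3 or 4 libraries of a group.

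Levels of different genes were set side by side per kilobase of exon, counting all annotated exon bases of a gene. That length can exceed the length of the transcripts expressed, so the order of genes is approximate. Lgals3 led in P15 T2MG libraries (799.9 ± 461 CPM per kilobase) and Cd83 in P60 T2MG libraries (325 ± 42.3). Cd9 led in Control libraries of all stages, with 71.0 ± 31.4 at E16, 582 ± 145 at P15 and 519 ± 201 CPM per kilobase at P60, although at E16 Cd52 (68.8 ± 36.8), Spp1 (63.0 ± 13.9) and Lgals3 (58.4 ± 34.3) were within its SD. Gpnmb was the lowest member in each group, from 0.218 ± 0.110 CPM per kilobase in P60 T2MG to 12.5 ± 5.64 in P15 T2MG libraries.

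Other genes of the disease-associated programme went both ways. Of 30 such genes, 8 fell at E16, 16 rose and 4 fell at P15, and 18 rose and 6 fell at P60. Over all genes tested, 2.67% fell at E16, 11.7% rose and 12.3% fell at P15, and 23.5% rose and 15.7% fell at P60. Median log2 differences of the 30 genes were -0.60, 1.12 and 0.88, beside 0.04, 0.01 and 0.14 over all genes. Apoe, a lipid carrier, averaged 36640 ± 4686 CPM in T2MG against 3206 ± 167 CPM in Control libraries at P15 (log2 3.51, adjusted p = 2.47e-07) and 47640 ± 2504 against 2691 ± 86.8 CPM at P60 (log2 4.15, adjusted p = 7.49e-10); at E16 it was not called (-0.79, adjusted p = 0.0746; called by DESeq2 and limma voom, adjusted p 0.00389 and 0.0196). Igf1, a growth factor, rose at P15 and P60 (3.53 and 5.15), as did the vacuolar proton pump subunit Atp6v0d2 (5.54) and the protease Ctsb (1.499) at P15. Trem2 fell at all 3 stages, to 28.7 ± 3.10 CPM in T2MG against 235 ± 83.3 CPM in Control libraries at E16 (-3.04), 129 ± 45.2 against 1124 ± 204 CPM at P15 (-3.13) and 52.4 ± 46.0 against 1258 ± 194 CPM at P60 (-4.58; adjusted p 0.00202, 0.000206 and 4.43e-07). The lysosomal proteases Ctsd (-1.78), Ctsl (-1.80) and Ctsz (-1.03) fell at E16, and Ctsd fell at P60 (-3.29).

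Of the other genes often used to mark this state, the lectin receptor Clec7a rose at P15 (1.502, adjusted p = 0.0344, a call lost without P15 T2MG 2 or any P15 Control library, adjusted p 0.0618 to 0.126) and at P60 (2.51, adjusted p = 0.000232; 3.35 without P60 Control 1). The lipase Lpl rose at P60 (3.64, adjusted p = 0.000143) and was 1.67 at P15 (adjusted p = 0.0733; called without P15 T2MG 3, 2.21, adjusted p = 0.000844). Cst7, a protease inhibitor, fell at P60 (-3.04, adjusted p = 0.000269) and at P15 (0.83, adjusted p = 0.298) was called by limma voom (adjusted p = 0.0224) and with only the P15 libraries (adjusted p = 0.0323). The integrin subunit Itgax was not called by edgeR at any stage, at -1.25, 0.45 and 0.48 (adjusted p 0.1, 0.413 and 0.264), while DESeq2 called it at E16 (-1.205, adjusted p = 0.0434). At E16 the log2 differences were -0.11 for Clec7a, -0.37 for Lpl and -0.26 for Cst7, none called (adjusted p 0.936, 0.804 and 0.864). The 8 genes called at E16 became 4 to 11 when single libraries were left out, with 4 without E16 Control 2, and leaving out both libraries that stood apart gave 11 at E16, 22 at P15 and 24 at P60.

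**Figure D4:**
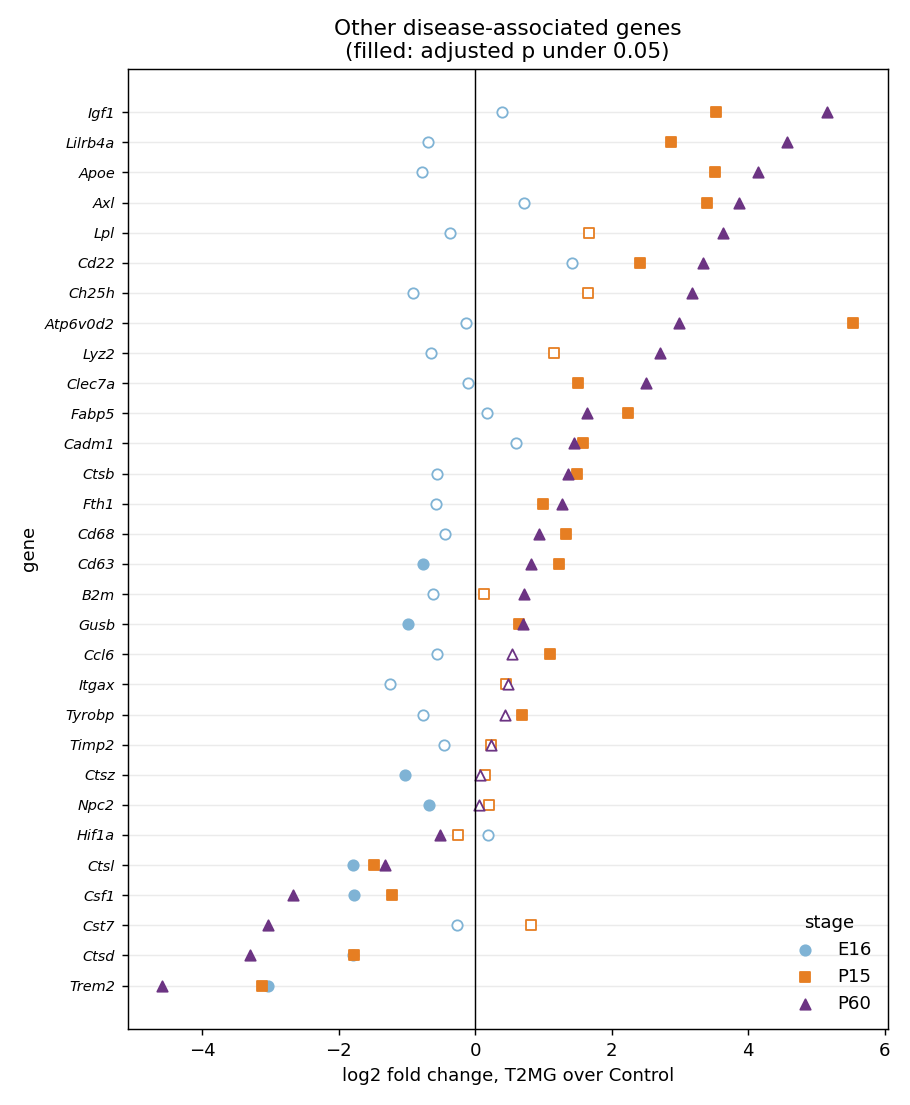
Log2 fold change of T2MG over Control (horizontal axis) for the 30 other disease-associated genes (rows, ordered by the P60 value) at E16 (circles), P15 (squares) and P60 (triangles); filled symbols had an adjusted p under 0.05. Apoe and Igf1 lie far right at P15 and P60, and Trem2 lies left of 0 at all 3 stages.

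Among the receptors for osteopontin, 9 in all, 1 fell at E16, 1 rose and 3 fell at P15, and 4 rose and 3 fell at P60 (median -0.16, 0.04 and 0.31). Of all genes tested, 3.20%, 24.0% and 39.3% were called at these stages. The genes that fell at P15 and P60 were Itgb3, Itgav and Itgb5, which encode subunits of alpha-v integrins. Their log2 differences at P15 and P60 were -2.41 and -4.56 for Itgb3, -1.79 and -2.02 for Itgav, and -1.18 and -1.63 for Itgb5. Itgb5 was also called at E16 (-1.08, adjusted p = 0.018), and lost the call without E16 Control 2 or E16 T2MG 1 or 3 (adjusted p 0.136, 0.0993 and 0.101). Itga9 rose at P15 (1.43) and Itga4 at P60 (3.60; 4.54 without P60 Control 1), both partners of beta-1 integrin. Cd44, the other class of receptor, rose at P60 (1.95, adjusted p = 0.0168; 0.0527 without P60 Control 4 and 0.0896 with only the P60 libraries; 3.80 without P60 Control 1) and was 0.02 at E16 and 0.80 at P15 (adjusted p 0.996 and 0.41; 0.0248 at P15 without P60 Control 1). Of 9 osteopontin relatives and proteases that cut it, 3 passed the filter on low counts, and the metalloproteases Mmp12 (3.12 and 4.37) and Mmp9 (4.17 and 4.79) rose at P15 and P60; at P15 Mmp9 lost its call without P15 Control 3 (adjusted p = 0.0623). At P60 Mmp9 averaged 1235 ± 565 CPM in T2MG against 44.55 ± 81.0 CPM in Control libraries, and without P60 Control 1 its log2 difference was 8.255 (adjusted p = 9.02e-10).

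Beside Gpnmb, its relative Pmel and the MiT/TFE transcription factors, 5 genes in all, held 1 that rose at P15 and at P60: Tfec, at 22.4 ± 10.5 CPM in T2MG against 3.73 ± 1.27 CPM in Control libraries at P15 (2.58) and 32.0 ± 3.19 against 4.25 ± 2.32 CPM at P60 (2.91). Of 8 galectins and related genes tested, 1 fell at E16, 1 rose at P15, and 3 rose and 2 fell at P60. The shares called over all genes were 3.20%, 24.0% and 39.3%. At P60 the galectin-binding protein Lgals3bp (1.90) and galectin-1, encoded by Lgals1 (2.77; 5.07 without P60 Control 1), rose, while Lgals9 (-0.91) and Lgals8 (-0.39; adjusted p 0.0157, and 0.0551 without P60 Control 2) fell. The calls of Lgals9 at E16 (-1.001, adjusted p = 0.0417) and Lgals3bp at P15 (0.91, adjusted p = 0.0326) ended when single libraries were left out. For Lgals9 these were any E16 T2MG library, E16 Control 1 or 2 and 7 libraries of the other stages (adjusted p 0.0503 to 0.331), and for Lgals3bp P15 T2MG 1 or 2 or any P15 Control library (adjusted p 0.0611 to 0.127).

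Tetraspanins other than Cd9 and their partners, 15 genes, moved in both directions. At E16 1 rose and 2 fell, at P15 1 rose and 4 fell, and at P60 1 rose and 7 fell, with medians of -0.14, -0.22 and -0.66. Beside these counts, 3.20%, 24.0% and 39.3% of all genes were called. Cd37, a tetraspanin of leukocytes, fell at all 3 stages (-2.02, -1.40 and -2.71), and Tspan14 fell at P15 and P60 (-1.30 and -1.55). Tspan7 fell at the same stages (-1.52 and -2.73), and Igsf8, a partner protein of Cd9, rose at P60 (1.43). Tspan33 fell by 0.94 at P15; its E16 call (-1.13, adjusted p = 0.0178) and that of Tspan13 (1.24, adjusted p = 0.00771) were lost without E16 Control 1 (adjusted p 0.0545 and 0.0539), and that of Tspan33 also without E16 T2MG 1 or 3 or E16 Control 2 (adjusted p 0.0867, 0.101 and 0.113). Of 4 genes tested that are known to act with Cd52 or Cd83, the co-stimulatory genes Cd86 (1.36) and Cd40 (3.20) rose at P60. Cd40 averaged 23.6 ± 4.33 CPM in T2MG against 2.53 ± 4.42 CPM in Control libraries, and without P60 Control 1 its log2 difference was 6.15. Of 9 genes of phosphate and pyrophosphate handling, to which Ank belongs, 1 rose and 1 fell at P15 and 3 rose at P60, a count of 2 to 5 when single libraries were left out and 5 without P60 Control 1. Over all genes, 24.0% were called at P15 and 23.5% were called higher at P60. Enpp1, the enzyme that makes extracellular pyrophosphate, rose at P15 and P60 (1.25 and 0.84), and the phosphate carrier Slc20a2 rose at P60 (1.20). The third, Enpp3, had 0.237 ± 0.255 CPM in T2MG and 0 counts in Control libraries, and its call (adjusted p = 0.0323) ended without P60 T2MG 1 or 3 or P60 Control 2, 3 or 4 (adjusted p 0.0572 to 0.0979), with limma voom and with the replicate block. Xpr1, a phosphate exporter, fell by 0.88 at P15 and lost its call without P15 Control 3 or P15 T2MG 3 (adjusted p 0.0793 and 0.0507).

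Across the 20 libraries the likeness of the members is described by Pearson's r of log2(CPM + 1), with no test, since libraries share groups and stages. The highest values were those of Lgals3 and Cd52 (r = 0.945), Cd83 and Ank (0.856), and Spp1 and Gpnmb (0.783). Cd9 and Ank (0.689) and Cd52 and Cd83 (0.56) came next. The lowest were -0.0531 for Cd9 and Lgals3 and -0.0137 for Gpnmb and Cd83. Among 10821 genes with at least 10 CPM in 1 group or more, those most like Spp1 were B4galnt1 (0.798), Dusp3 (0.788) and Nhp2 (0.78), and those most like Gpnmb were Cxcr2 (0.853), Ppm1m (0.846) and Taldo1 (0.827). Nearest to Lgals3 were Gstm1 (0.973), Pqlc3 (0.972) and Tspo (0.969), and nearest to Cd52 were Crip1 (0.976), Nop10 (0.956) and Cox5b (0.952). Cd9 was closest to Susd3 (0.977), the tetraspanin Cd37 (0.972) and Plxdc1 (0.972). Cd83 was closest to Smpdl3b (0.978), Fam3c (0.974) and Fbxo6 (0.973), and Ank to Tmem50a (0.934), Sqrdl (0.93) and Brk1 (0.929).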

How the data were processed

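RNA of sorted mouse microglia was sequenced in 20 libraries. Per the labels' protocols, RNA came from a Qiagen micro-scale kit and poly-A libraries from a Clontech SMART-Seq low input kit. The authors deposited raw counts per gene symbol; the submitters' processing notes name TopHat2 (0.7), Cufflinks 2.2.1 and mm10. The counting tool and its use of strand are not stated in the sources used here, so overlapping or antisense genes are uncertain. Of 24421 entries, 27 dates in place of symbols were left out (0.122% to 0.256% of counts); 0 columns lacked a sample.

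In R 4.3.3, edgeR 4.0.16 fitted 1 quasi-likelihood model over the 20 libraries and 6 groups with TMM scaling, on 15568 genes kept by the default filter. P-values were adjusted by Benjamini-Hochberg over all genes; single p-values come from this test unless another tool is named. Each library was taken as 1 animal, per the study's description. No pair of replicates came near sampling noise (5.25 to 152.5 chi-square per gene). The lowest value was that of E16 T2MG 1 and 3, and the next was 15.6 (P60 Control 3 and 4). Amplified libraries of 1 animal can also differ by more than sampling noise, so this does not show separate animals. Positions and exon lengths come from GENCODE M21, and promoters from RefSeq. Alternatives used DESeq2 1.42.0 and limma 3.58.1. The script was tested on simulated counts. The 7 genes and all lists were chosen with earlier results of these data known, so no list supports its own direction. Named were, beside the members, Tgfbr2, Trem2, Apoe, Itgax, Cst7, Clec7a, Lpl, Cd44, up to 4 called genes of each list per comparison with the smallest adjusted p, and 3 genes most like each member.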

Additional observations from a re-analysis of the deposited data

Results flagged for a closer look

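In groups of 4, a library counted as standing apart when its gap to the nearest other, over the range of the group, passed Dixon's critical value of 0.829; chance gives this in about 1 in 20 groups. At P60, Control 1 stood apart for Lgals3 (182 CPM), Cd9 (1672 CPM) and Cd52 (200.1 CPM), and T2MG 2 stood apart for Cd52 (115 CPM), below the other T2MG libraries.

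The effect of genotype differed between stages by a test of the difference itself. From E16 to P15 it was higher for Spp1 (5.58), Gpnmb (6.33), Lgals3 (3.48) and Cd83 (1.497) on the log2 scale. From P15 to P60 it was lower for Spp1 (-2.41) and Gpnmb (-6.51), and from E16 to P60 higher for Spp1 (3.17) and Cd83 (1.56).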

How the results depend on the processing

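The genotype differences of the 7 members kept their direction and their side of the threshold in 583 of 606 results under other settings. This count does not measure stability. It includes omissions of libraries from other stages, which barely move a log2 difference, and differences that stayed uncalled. In the other results, 10 lost a call, 10 gained one and 3 turned in sign. The losses of Lgals3 at P15 and P60 are given with its values above. Of the counts of members called, the P60 against P15 difference went to 1 with only the libraries compared and with both libraries that stood apart left out, and single omissions gave 1 to 3. The P60 against E16 difference went to 4 with limma voom, with the replicate block, and with both left out (single omissions 2 to 4). P60 against P15 in Control went to 1 with DESeq2, 2 with limma voom and 2 with both left out (single omissions 0 to 2). Leaving out both libraries was an alternative chosen after seeing the data. Correlations did not settle whether same-numbered libraries were paired. Of 10 same-numbered pairs, 4 correlated above 0.1 (-0.0631 to 0.333), and pairs of different numbers ran from -0.294 to 0.274. The main test took the libraries as unpaired. The replicate block called 276 genes at E16, in place of 498, and Gpnmb among them.

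Signs turned as follows. In the P60 against P15 difference, Cd83 was -0.00774 with RLE scaling, -0.00769 with DESeq2 and -0.0371 with both libraries out. Cd52 was 0.012 with upper quartile scaling, 0.56 with limma voom, 0.0143 with only the libraries compared, 0.61 with the replicate block and 1.13 with both out. Lgals3 was 0.29, 0.33 and 1.62 with limma voom, the block and both out. Gpnmb in the P60 against E16 difference was 0.32 with limma voom and 0.10 with the block. Spp1 in P60 against P15 Control was 0.00833 with RLE scaling and 0.00837 with DESeq2, and Cd44 at E16 was -0.0142 with only the libraries compared. None of these was called in the main test; the cause was not tested. Ranges over single omissions that crossed 0 were -0.19 to 0.25 for Cd44, -0.53 to 0.0941 for Clec7a and -0.55 to 0.048 for Cst7 at E16, -0.0594 to 0.72 for Itgax at P15 and -0.63 to 0.11 for Spp1 at P60. For differences between stages they were -0.0445 to 0.61 for Cd9 (P15 against E16), -1.10 to 1.04 for Lgals3, -0.30 to 1.24 for Cd52 and -0.14 to 0.30 for Cd83 (P60 against P15), and -0.54 to 0.34 for Gpnmb (P60 against E16). In Control they were -0.21 to 0.25 for Spp1 and -0.47 to 0.0419 for Cd9 (P60 against P15) and -1.41 to 0.37 for Cd52 (P60 against E16).

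All genes called at E16 numbered 498, with 959 by DESeq2, 1198 by limma voom, 319 with only the E16 libraries, 1153 with both libraries out and 148 to 961 in single omissions. With limma voom 59.7% of E16 calls were higher, beside 16.5% in the main test. At P15 3738 genes were called, with 2209 from the P15 libraries alone. Among the pathway lists, the 5 genes beside Gpnmb went to 3 called at P60 with only the libraries compared, and the 9 phosphate genes to 5 with both libraries out. DESeq2 gave no adjusted p for Cd52. Gpnmb at P60 rested on as few as 5 counts in a library. Amplified reads without molecular tags are not independent molecules.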
